A study of Mus musculus with 32 samples.

Results

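Hypothalamus and calf muscle of healthy 200-day-old mice were compared as 2 excitable tissues: which ion channels, calcium-handling proteins, energy-metabolism enzymes and cytoskeletal isoforms each one transcribed, and at what level. The comparison took the 4 hypothalamus libraries and the 6 muscle libraries of the control (CTL) mice, 10 of the 32 libraries of the series, chosen by their labels alone. All 10 carried the genotype Ctrl on the strain C57BL/6 at 200 days, hypothalamus libraries 1 to 4 from males, muscle libraries 1 to 3 from females and 4 to 6 from males. These mice were the controls of a muscle-specific COX10 KO, made by crossing COX10Flx mice with mice that express Cre from the Myl1 locus; the labels do not say which of these alleles a control carried, and Cox10 itself was counted in all 10 libraries (34.0 to 58.8 CPM in hypothalamus, 54.7 to 178.6 CPM in muscle). Calf muscle pooled gastrocnemius and soleus, so that a library mixes fast and slow fibres. The libraries were made from transcript 3′ ends, so that 1 count stands for 1 transcript end whatever the transcript's length, and levels are given as counts per 1000000 (CPM) over library sizes scaled by the trimmed mean of M values (TMM). The labels number the libraries but do not say that each came from its own mouse, so the p-values measure the spread between these libraries. Beside them, the 6 liver libraries of the CTL mice (200 days, 3 from females and 3 from males) served only as a further tissue for ratios of paralogs.

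Total counts ran from 4070847 to 22321322 in hypothalamus (library 1 the deepest) and from 434494 to 8936522 in muscle (library 2 the shallowest, where 1 count is worth 2.1 CPM). Summed over 10 neuron markers (1 of them, Tubb3, at 0 in every library), hypothalamus reached 3520 to 4557 CPM and muscle 19.2 to 84.2 CPM, and 11 markers of hypothalamic neurons summed to 531 to 1196 CPM against 1.10 to 10.5 CPM. Skeletal fibre markers, 12 in all, gave 86349 to 260252 CPM in muscle and 104 to 147 CPM in hypothalamus, most of it Pvalb, which neurons also transcribe. Muscle library 2 stood apart: it was lowest for the fibre markers and highest for adipocyte markers (3256 CPM against 64.8 to 746 in the other muscle libraries), for the liver transcript Alb (1880 against 20.5 to 121 CPM) and for neuron markers (84.2 against 19.2 to 42.3). Without it, 5189 genes were higher in hypothalamus and 4005 in muscle, against 5375 and 3709 with it. Erythrocyte markers were highest in muscle library 3 (13697 against 1362 to 2362 CPM), and their part in the results was not tested. Among them Hba-a1, Hba-a2, Hbb-bs and Hbb-bt share 85.75%, 81.2%, 61.63% and 54.42% of their 3′ ends with another gene. Sums of erythrocyte markers are therefore uncertain, here and below.

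An excitable cell fires by letting sodium and calcium in through voltage-gated channels and potassium out through others. A neuron does so at dendrites, axon and synapses to release transmitter, whereas a skeletal fibre carries a sodium spike along its membrane and into the T-tubules, where a calcium channel acts as voltage sensor for the release of stored calcium, which frees the thin filament for myosin. Both tissues pay for ion pumping with ATP; muscle adds the cost of contraction and holds glycogen, creatine phosphate and fat as fuel, whereas brain burns mostly glucose. Many of the proteins concerned come from families in which one gene serves muscle and a paralog serves other tissues.

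Of 13401 genes with enough counts to test, 5375 (40.1%) were higher in hypothalamus and 3709 (27.7%) in muscle at an adjusted p under 0.05 (edgeR's quasi-likelihood test, Benjamini-Hochberg adjustment over all genes tested), and the median log2 fold change, hypothalamus minus muscle, was 0.32. At least 4-fold differences numbered 3157 (23.6%) and 1488 (11.1%). This split rests on the scaling: with plain total counts 80.2% of the calls (7942 against 1962) were higher in hypothalamus, against 59.2% here. The 23 functional lists held 748 genes, of which 661 were tested, 278 were higher in hypothalamus, 312 in muscle and 71 passed in neither direction; 87 had too few counts in both tissues, 16 of them none at all. In a bulk tissue, fewer cells of a type and less RNA per cell cannot be told apart, so each value is an average over all the cells of the piece. The lists fell on different sides: channel lists had medians between 0.40 and 7.25, energy lists between -3.92 and -0.88, and sarcomere lists between -2.68 and -1.96.

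**Figure D1:**
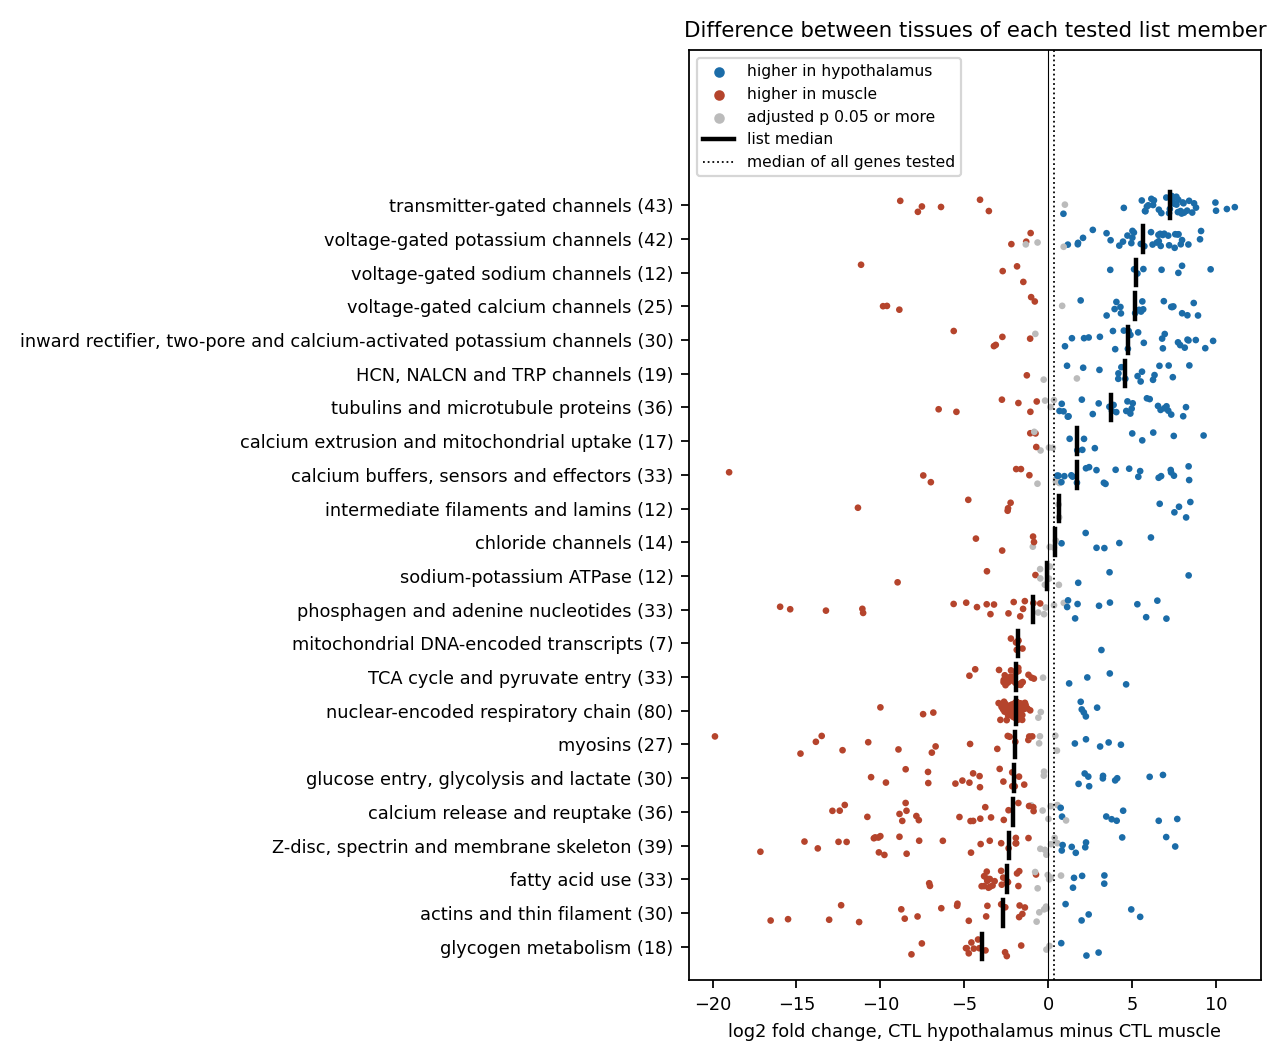
Log2 fold change (hypothalamus minus muscle, x axis) of every tested member of the 23 functional lists, 1 dot per gene and 1 row per list, coloured by call; the bar is the list's median and the dotted line the median of all 13401 genes tested (0.32). Transmitter-gated channels lie farthest right (median 7.25) and glycogen metabolism farthest left (median -3.92), and most lists hold genes on both sides.

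Members that move together were set beside their promoters, in RefSeq windows from 250 bases before to 50 bases after a transcript start (GRCm38.p6; 173 of 234 list members at least 4-fold higher in hypothalamus and 158 of 209 in muscle had one). Motifs were searched on both strands: CAGCTG, an E-box that MyoD-type factors bind, the MEF2 consensus, the CArG box of serum response factor, TATAAA, and the RE1 consensus, bound by the repressor REST that silences neuronal genes elsewhere. CAGCTG lay in 25.4% of the windows of list members at least 4-fold higher in muscle, in 19.1% of those higher in hypothalamus, in 16.1% of the 13327 windows of the genes tested and in 16.3% of all 32851 windows. In the same order the shares were 6.09%, 2.03%, 1.98% and 3.19% for the MEF2 consensus, 4.06%, 1.22%, 1.26% and 1.63% for the CArG box, and 11.2%, 10.6%, 7.44% and 13.6% for TATAAA. RE1 lay in no window of the muscle set, in 0.813% (2 windows, Gria2 and Ogdhl) of the hypothalamus set, in 0.09% of the windows of the genes tested and in 0.0639% of all windows. Over all genes at least 4-fold higher in muscle, the shares were 20.6% for CAGCTG, 5.38% for MEF2, 2.45% for CArG and 12.1% for TATAAA. For all those at least 4-fold higher in hypothalamus they were 18.3%, 1.69%, 1.11% and 8.27%. There RE1 lay in 0.318% (10 windows), and in no window of the muscle genes. The list members had been chosen with earlier results of these data known. A match is a description of the letters, not a site. The 250 bases before the start are shown for 3 genes higher in muscle (actin, acetylcholine receptor, glycogen phosphorylase) and 3 higher in hypothalamus (creatine kinase, glutamate receptor, oxoglutarate dehydrogenase), 5′ to 3′ on the gene's strand, with motif letters in capitals.
Acta1, chr8:123894776-123895025, minus strand: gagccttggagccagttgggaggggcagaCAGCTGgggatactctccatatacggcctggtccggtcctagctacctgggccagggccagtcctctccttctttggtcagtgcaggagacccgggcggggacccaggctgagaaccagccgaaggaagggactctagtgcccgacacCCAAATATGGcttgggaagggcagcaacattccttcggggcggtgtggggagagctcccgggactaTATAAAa
Chrna1, chr2:73580339-73580588, minus strand: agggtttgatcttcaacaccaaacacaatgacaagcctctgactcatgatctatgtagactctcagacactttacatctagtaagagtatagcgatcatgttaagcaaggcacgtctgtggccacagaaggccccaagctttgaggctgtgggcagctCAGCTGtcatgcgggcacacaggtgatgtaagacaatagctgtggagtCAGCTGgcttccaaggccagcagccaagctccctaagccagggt
Pygm, chr19:6384158-6384407, plus strand: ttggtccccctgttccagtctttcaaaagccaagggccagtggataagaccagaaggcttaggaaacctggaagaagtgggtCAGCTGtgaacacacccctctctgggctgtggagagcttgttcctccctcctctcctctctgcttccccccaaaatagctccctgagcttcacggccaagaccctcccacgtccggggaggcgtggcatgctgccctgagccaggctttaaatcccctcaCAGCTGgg
Ckb, chr12:111672339-111672588, minus strand: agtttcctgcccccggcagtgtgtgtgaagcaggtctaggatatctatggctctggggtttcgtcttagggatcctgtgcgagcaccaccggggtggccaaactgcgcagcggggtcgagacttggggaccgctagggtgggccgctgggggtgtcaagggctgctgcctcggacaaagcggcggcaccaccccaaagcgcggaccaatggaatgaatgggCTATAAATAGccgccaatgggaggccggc
Gria2, chr3:80802836-80803085, minus strand: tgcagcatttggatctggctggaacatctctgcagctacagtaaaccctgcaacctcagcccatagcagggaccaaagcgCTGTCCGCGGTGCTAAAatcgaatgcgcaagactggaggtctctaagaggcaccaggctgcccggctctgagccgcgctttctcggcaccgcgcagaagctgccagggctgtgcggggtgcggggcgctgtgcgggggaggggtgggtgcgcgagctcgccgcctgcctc
Ogdhl, chr14:32321769-32322018, plus strand: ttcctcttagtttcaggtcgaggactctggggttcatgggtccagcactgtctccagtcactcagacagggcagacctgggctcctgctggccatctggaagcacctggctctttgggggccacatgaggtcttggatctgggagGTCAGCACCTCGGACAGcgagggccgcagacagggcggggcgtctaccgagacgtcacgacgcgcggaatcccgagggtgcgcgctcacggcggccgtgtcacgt
Acta1 holds CAGCTG, a CArG box and TATAAA, whose first letters lie 221, 73 and 7 bases before the start. Chrna1 holds CAGCTG at 92 and 44 bases, and Pygm at 168 and 8. Ckb has 1 run at 29 bases in which the MEF2 consensus and TATAAA overlap, although it is higher in hypothalamus. In Gria2 and Ogdhl the capitals are the 17 letters of RE1, at 170 and 105 bases.

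Voltage-gated sodium channels carry the spike. Of 14 listed genes 12 were tested, 8 were higher in hypothalamus, 4 in muscle, and the median log2 fold change was 5.21. Scn4a, the alpha subunit of the skeletal muscle channel (ENSMUSG00000001027.7, chromosome 11, bases 106318592 to 106353288, minus strand), had 0 CPM in all 4 hypothalamus libraries and 33.9 to 59.5 CPM in muscle (median 43.8), at least 645-fold higher in muscle, taking 3 counts over the group as the limit that 0 allows (such bounds, and the counting intervals given for genes with 1 to 3 counts in a tissue, cover counting error only). It made up 46.8 to 82.6% of the alpha-subunit counts of a muscle library (69.7 to 82.6% without library 2). Brain alpha subunits had the reverse pattern. Scn8a, which sits at the axon initial segment and nodes, stood at 225, 224, 238 and 232 CPM in hypothalamus libraries 1 to 4 and 0 to 10.5 CPM in muscle (median 0.84). The hypothalamus libraries lay within a narrow band, far above all muscle libraries (log2 fold change 7.75 ± 0.57 SE, adjusted p = 7.83e-09). Scn2a was at 267, 156, 128 and 164 CPM in hypothalamus, against 0 to 7.23 CPM (median 3.18) in muscle. No muscle library came near the lowest hypothalamus library (log2 fold change 5.67 ± 0.40 SE, adjusted p = 5.62e-09). Scn1a showed 208, 98.4, 82.6 and 81.4 CPM in hypothalamus, against 0 to 1.11 CPM (median 0) in muscle (1332-fold by counts over depth, 95% counting interval 369 to 10999, adjusted p = 2.07e-09), and hypothalamus library 1 stood above the other 3. The beta subunits, which tune gating and adhesion, were divided: Scn2b was higher in hypothalamus (log2 fold change 6.75, adjusted p = 8.18e-10), whereas Scn4b reached 50.1 to 194 CPM in muscle (median 84.8) and 8.76, 11.4, 13.3 and 31.3 CPM in hypothalamus (log2 fold change -2.71 ± 0.44 SE, adjusted p = 5.11e-05). Scn7a, a sodium sensor, was at 3.21 to 4.91 CPM in hypothalamus and 5.95 to 39.99 CPM in muscle, its highest value, 39.99 CPM, being that of muscle library 2; its muscle-higher call was lost under plain total counts (adjusted p = 0.235) and with sex as a covariate (adjusted p = 0.0820).

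Potassium channels end the spike and hold the resting potential. Of the voltage-gated ones, 42 of 54 listed genes were tested, and 36 were higher in hypothalamus and 3 in muscle (median log2 fold change 5.62). Kcnd2, a subunit of the A-type current that delays firing, stood at 860.1, 473, 411 and 387 CPM in hypothalamus libraries 1 to 4 and 0.548 to 6.31 CPM in muscle (median 2.49). All hypothalamus libraries exceeded the highest muscle library by far (log2 fold change 7.89 ± 0.45 SE, adjusted p = 6.72e-10). Its calcium-binding partner Kcnip4 was the most abundant gene of the list in hypothalamus, at 2214, 1339, 1294 and 1106 CPM in hypothalamus, against 0.426 to 14.7 CPM (median 2.60) in muscle (log2 fold change 9.04 ± 0.69 SE, adjusted p = 1.23e-08). Kcnq3, which forms the M-current that muscarinic receptors close, had 405, 244, 240.2 and 246 CPM in hypothalamus, against 0.548 to 4.21 CPM (median 1.63) in muscle (log2 fold change 7.76 ± 0.42 SE, adjusted p = 4.29e-10). Kcns2, a silent modifier subunit, had no count in muscle and 8.96 to 12.8 CPM in hypothalamus, at least 56.4-fold higher. Among the muscle-higher members, Kcnc4, an alpha subunit, lay at 51.7 to 127 CPM in muscle (median 74.4) and 27.8, 40.5, 51.0 and 35.0 CPM in hypothalamus (log2 fold change -1.05 ± 0.27 SE, adjusted p = 0.00311). The groups did not overlap but came close. It held 27.3 to 43.8% of the alpha-subunit counts in muscle and 0.861 to 2.54% in hypothalamus. For Kcna5 (0.802 to 1.67 CPM in hypothalamus and 0 to 4.63 CPM in muscle, log2 fold change -1.31 ± 0.44 SE, adjusted p = 0.0149) the groups overlapped and the call was lost without hypothalamus library 3 (adjusted p = 0.0601). Under plain total counts neither Kcnc4 (log2 fold change -0.20, adjusted p = 0.551) nor Kcna5 (-0.43, adjusted p = 0.365) passed, and 1 listed gene was higher in muscle.

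Inward rectifiers, tandem-pore and calcium-activated potassium channels gave 24 genes higher in hypothalamus and 5 higher in muscle among 30 tested of 42 (median log2 fold change 4.77). The muscle-higher members were all inward rectifiers or their partner. Kcnj11, the pore of the ATP-sensitive channel that opens when ATP falls, stood at 103 to 254 CPM in muscle (median 229) and 13.2, 21.6, 26.6 and 27.4 CPM in hypothalamus. Each muscle library was several-fold above the highest hypothalamus library (log2 fold change -3.24 ± 0.32 SE, adjusted p = 2.63e-07). Abcc9, the sulfonylurea receptor that assembles with it, was at 147 to 268 CPM in muscle (median 189) and 3.85, 3.49, 4.65 and 4.22 CPM in hypothalamus (log2 fold change -5.63 ± 0.30 SE, adjusted p = 4.06e-10). The other receptor, Abcc8, was instead higher in hypothalamus, at 7.77 to 14.7 CPM in hypothalamus and 2.22 to 8.05 CPM in muscle with overlap (log2 fold change 1.41 ± 0.38 SE, adjusted p = 0.00363). Kcnj2, the classical strong rectifier of muscle, was low in both, at 0 to 1.19 CPM in hypothalamus and 1.56 to 16.8 CPM in muscle (log2 fold change -3.13 ± 0.77 SE, adjusted p = 0.00201). In hypothalamus the G protein-gated rectifier Kcnj9 reached 51.9 to 69.4 CPM, against 0 to 0.556 CPM in muscle (542-fold by counts over depth, 95% counting interval 149.97 to 4479, adjusted p = 3.77e-10). All 8 tested tandem-pore channels, which carry leak currents, were higher in hypothalamus, among them Kcnk9 at 39.9 to 57.7 CPM in hypothalamus and 0 to 0.142 CPM in muscle (883-fold by counts over depth, 95% counting interval 158 to 34871, adjusted p = 3.62e-10), and Kcnk10, at 0 CPM in all muscle libraries, at least 125-fold higher. Kcnma1, the large-conductance calcium-activated channel, differed least among the called genes (307 to 588 CPM in hypothalamus and 82.1 to 332 CPM in muscle, log2 fold change 1.00 ± 0.34 SE, adjusted p = 0.0156), with overlap, and lost its call without hypothalamus library 1 (adjusted p = 0.0628), with sex as a covariate (adjusted p = 0.148) and with males only (adjusted p = 0.183).

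Voltage-gated calcium channels convert the spike into a calcium signal. Of 26 listed genes 25 were tested, 19 were higher in hypothalamus, 5 in muscle, and the median log2 fold change was 5.18. Cacna1s, the L-type channel that serves as voltage sensor of the T-tubule (ENSMUSG00000026407.17, chromosome 1, bases 136052750 to 136119822, plus strand), stood at 177 to 518 CPM in muscle (median 344) and 0.613, 1.06, 0.642 and 0.676 CPM in hypothalamus. Not 1 hypothalamus library exceeded 1.06 CPM (log2 fold change -8.87 ± 0.47 SE, adjusted p = 4.28e-10), and its share of the alpha1-subunit counts was 0.055 to 0.141% there against 85.7 to 94.5% in muscle. Cacna1c, the L-type channel of neurons and heart, showed 377, 225, 202 and 172 CPM in hypothalamus, against 8.66 to 25.1 CPM (median 13.7) in muscle (log2 fold change 4.06 ± 0.31 SE, adjusted p = 1.4e-08), and P/Q-type Cacna1a, which triggers transmitter release, 245, 199, 161 and 153 CPM in hypothalamus, against 6.31 to 23.4 CPM (median 9.84) in muscle (log2 fold change 3.95 ± 0.32 SE, adjusted p = 2.13e-08). All 8 tested alpha1 genes other than Cacna1s were higher in hypothalamus. Its partner subunits went the same way as Cacna1s: the gamma subunit Cacng1 was at 185 to 699 CPM in muscle (median 506) and 0.511, 0.152, 1.12 and 0.169 CPM in hypothalamus (log2 fold change -9.84 ± 0.59 SE, adjusted p = 1.06e-09), Cacng6 at 0.273 to 0.456 CPM in hypothalamus and 118 to 479.7 CPM in muscle (log2 fold change -9.61 ± 0.53 SE, adjusted p = 5.13e-10), and the beta subunit Cacnb1 at 70.1 to 123 CPM in hypothalamus and 130.5 to 199 CPM in muscle (log2 fold change -0.80 ± 0.24 SE, adjusted p = 0.00723). The Cacnb1 difference was lost under plain total counts (log2 fold change 0.0575, adjusted p = 0.834), where 3 listed genes were higher in muscle. The related Cacng2, an AMPA receptor auxiliary that shares the gamma-subunit fold, had 173, 190.1, 164 and 226 CPM in hypothalamus, against 0 to 1.67 CPM (median 0.142) in muscle (log2 fold change 8.67 ± 0.48 SE, adjusted p = 5.41e-10), and Cacng8 had no count in muscle (at least 62.1-fold higher in hypothalamus).

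**Figure D2:**
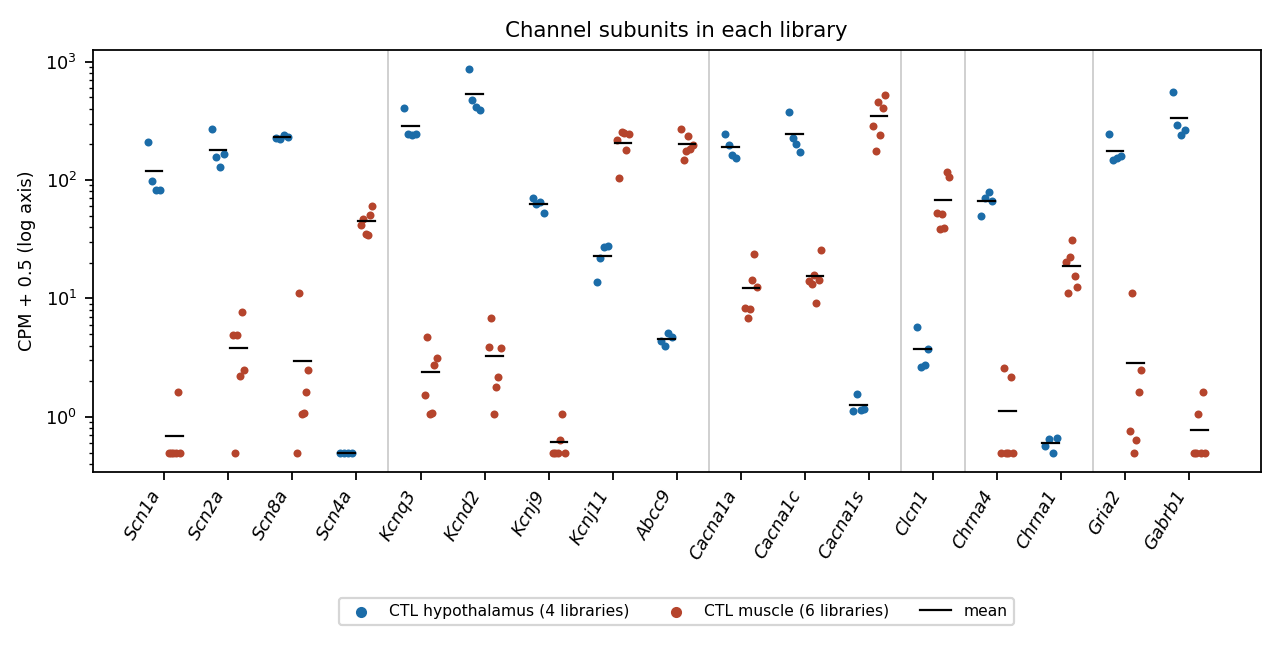
CPM plus 0.5 (log axis) of 17 channel genes in each library, hypothalamus and muscle side by side, 1 dot per library, with a bar at the mean and grey lines between families. Scn4a, Cacna1s, Clcn1, Chrna1, Kcnj11 and Abcc9 are high in muscle and the other 11 in hypothalamus; Scn4a has no count in hypothalamus and 33.9 to 59.5 CPM in muscle.

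Chloride and cation leak channels set the resting state. Among chloride channels 6 of 14 tested were higher in hypothalamus and 4 in muscle (median log2 fold change 0.40, close to that of all genes). The muscle count fell to 2 without hypothalamus library 3 or 4 or muscle library 3, 5 or 6, each time with the calls of Ano6 and Ano10 lost (adjusted p = 0.0545 to 0.106), and also under plain total counts, without the expression filter and after thinning. Clcn1, the main chloride conductance of muscle membrane, stood at 37.9 to 116 CPM in muscle (median 51.7) and 5.28, 2.13, 2.25 and 3.21 CPM in hypothalamus (log2 fold change -4.31 ± 0.43 SE, adjusted p = 2.78e-07). The groups were far apart, and Clcn1 took 20.6 to 40.1% of the CLC counts in muscle. Ano5, an anoctamin linked to inherited muscle disease, was at 120.0 to 227 CPM in muscle (median 164) and 31.6, 24.1, 21.3 and 24.0 CPM in hypothalamus (log2 fold change -2.75 ± 0.26 SE, adjusted p = 1.59e-07), whereas Ano3 (31.9 to 53.7 CPM in hypothalamus and 0 to 2.10 CPM in muscle) and Ano4 (41.2 to 108 CPM in hypothalamus and 1.82 to 5.01 CPM in muscle) were higher in hypothalamus. Of 19 tested HCN, NALCN and TRP channels, 16 were higher in hypothalamus and 1 in muscle. The sodium leak complex was uniform: Nalcn itself (71.6 to 143 CPM in hypothalamus and 0 to 4.63 CPM in muscle, log2 fold change 5.32 ± 0.35 SE, adjusted p = 2.47e-09) and its subunits Unc79 (log2 fold change 7.17 ± 0.41 SE, adjusted p = 7.58e-10) and Unc80 (log2 fold change 8.41 ± 0.44 SE, adjusted p = 4.01e-10) were all higher in hypothalamus. Trpm4, a calcium-activated cation channel, was the muscle-higher member (3.21 to 5.45 CPM in hypothalamus and 6.49 to 16.7 CPM in muscle, log2 fold change -1.28 ± 0.33 SE, adjusted p = 0.00259), but was not called under plain total counts (log2 fold change -0.40, adjusted p = 0.258), which left no muscle-higher gene in the list. The pacemaker channel Hcn4 did not pass the test (14.5 to 92.7 CPM in hypothalamus and 1.10 to 54.7 CPM in muscle, adjusted p = 0.0508), though it did without hypothalamus library 1 or 2 or muscle library 1 or 2 (adjusted p = 0.0105 to 0.0491) and, among other settings, with males only (adjusted p = 0.00313).

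Transmitter-gated channels receive the synaptic signal, acetylcholine at the endplate and mainly glutamate, GABA and glycine in hypothalamus. Of 43 tested of 59 listed, 36 were higher in hypothalamus and 6 in muscle (median log2 fold change 7.25); with at least 10 counts asked of every library of a tissue, 1 muscle-higher gene was left among 39 tested. All 4 tested subunits of the muscle nicotinic receptor were higher in muscle. Chrna1, which binds acetylcholine, stood at 10.5 to 31.0 CPM in muscle (median 17.5) and 0.0681, 0.152, 0 and 0.169 CPM in hypothalamus (log2 fold change -7.53 ± 0.54 SE, adjusted p = 6.06e-09); its promoter, shown above, holds 2 CAGCTG runs. Chrnb1 was at 0 to 0.676 CPM in hypothalamus and 11.5 to 29.6 CPM in muscle (log2 fold change -6.39 ± 0.56 SE, adjusted p = 6.04e-08). Chrne, the adult endplate subunit, had no count in hypothalamus and 3.29 to 18.9 CPM in muscle (at least 135-fold higher), and Chrnd, likewise at 0 in hypothalamus, reached 0 to 8.90 CPM (at least 65.1-fold higher), with muscle library 1 also at 0. Neuronal nicotinic subunits were the mirror image, with Chrna4 at 49.6 to 78.5 CPM in hypothalamus and 0 to 2.10 CPM in muscle (log2 fold change 7.88 ± 0.60 SE, adjusted p = 1.09e-08) and Chrnb2 at 12.5 to 27.6 CPM in hypothalamus and 0 to 1.11 CPM in muscle (log2 fold change 6.30 ± 0.56 SE, adjusted p = 6.12e-08). All 13 tested GABA-A, 4 glycine, 4 AMPA, 5 kainate and 6 NMDA subunits were higher in hypothalamus. The AMPA subunit that limits calcium entry, Gria2, had 243, 146, 152 and 158 CPM in hypothalamus, against 0 to 10.5 CPM (median 0.686) in muscle (log2 fold change 7.64 ± 0.63 SE, adjusted p = 2.64e-08). Gabrb1 was the highest GABA-A subunit in library 1, at 551, 289, 241 and 265 CPM in hypothalamus, against 0 to 1.11 CPM (median 0) in muscle (2419-fold by counts over depth, 95% counting interval 828 to 11731, adjusted p = 5.33e-10), and Glra1 had no count in muscle and 34.1 to 56.2 CPM in hypothalamus (at least 230.1-fold higher). The ATP-gated P2X channels did not follow, P2rx5 (0.676 to 1.28 CPM in hypothalamus and 6.31 to 27.8 CPM in muscle, log2 fold change -4.06 ± 0.43 SE, adjusted p = 5.13e-07) and P2rx6 (0.911 to 2.20 CPM in hypothalamus and 11.1 to 23.9 CPM in muscle, log2 fold change -3.54 ± 0.36 SE, adjusted p = 3.16e-07) being higher in muscle.

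The sodium-potassium ATPase restores the gradients that both tissues spend. Its list showed no side: 3 of 12 tested genes were higher in hypothalamus, 3 in muscle, 6 passed in neither direction, and the median was -0.08. Without muscle library 5 the muscle count fell to 1 of 11 tested, and under plain total counts 5 genes were higher in hypothalamus and 2 in muscle. Atp1b1, the main beta subunit, was higher in hypothalamus (1183 to 1428 CPM in hypothalamus and 176 to 746 CPM in muscle, log2 fold change 1.79 ± 0.39 SE, adjusted p = 0.000807). Fxyd1, the muscle regulator phospholemman, reached 210.5 to 673 CPM against 24.0 to 35.2 CPM in hypothalamus (log2 fold change -3.65 ± 0.34 SE, adjusted p = 1.2e-07).

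In muscle, calcium is released from the sarcoplasmic reticulum and pumped back into it with each twitch. Of 36 tested genes 22 were higher in muscle and 8 in hypothalamus (median log2 fold change -2.07). Ryr1, the release channel of the sarcoplasmic reticulum (ENSMUSG00000030592.18, chromosome 7, bases 29003344 to 29125179, minus strand), stood at 823 to 2741 CPM in muscle (median 2043) and 6.27, 4.86, 4.49 and 2.70 CPM in hypothalamus (log2 fold change -8.70 ± 0.52 SE, adjusted p = 9.39e-10), and it made up 89.3 to 96.5% of the release-channel counts in muscle. Ryr2 (56.6 to 141 CPM in hypothalamus and 0 to 8.42 CPM in muscle, log2 fold change 6.58 ± 0.60 SE, adjusted p = 8.61e-08) and Ryr3 (95.6 to 199 CPM in hypothalamus and 4.38 to 11.5 CPM in muscle, log2 fold change 4.08 ± 0.31 SE, adjusted p = 1.11e-08) were higher in hypothalamus. The IP3 receptor Itpr1 was transcribed in both and differed little, at 143, 109.6, 103 and 116 CPM in hypothalamus, against 46.0 to 102 CPM (median 61.2) in muscle (log2 fold change 0.82 ± 0.25 SE, adjusted p = 0.00878), a call lost with sex as a covariate (adjusted p = 0.106) and with males only (adjusted p = 0.217). The pumps that refill the store split by isoform: Atp2a1 of fast fibres was at 8777 to 19016 CPM in muscle (median 14123) and 1.29, 2.89, 2.73 and 0.845 CPM in hypothalamus (log2 fold change -12.86 ± 0.63 SE, adjusted p = 3.69e-10), whereas Atp2a2, which neurons and slow fibres share, was at 256, 302, 382 and 342 CPM in hypothalamus, against 91.2 to 1711 CPM (median 205) in muscle, with overlap and no call (log2 fold change -1.01 ± 0.73 SE, adjusted p = 0.231), although it was called higher in muscle with sex as a covariate (-1.80, adjusted p = 0.0169) and with males only (-1.95, adjusted p = 0.0119). Of the male muscle libraries, library 5 gave the 1711 CPM and library 6 the 91.2 CPM, which is below every hypothalamus library. Atp2a2 held 98.0 to 99.0% of the pump counts in hypothalamus and 0.477 to 11.9% in muscle.

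Of the proteins that buffer calcium inside the store 5 of 6 tested were higher in muscle and none in hypothalamus. Casq1, the main buffer of the store, reached 1284 to 2686 CPM in muscle against 0 to 0.642 CPM (log2 fold change -12.42 ± 0.58 SE, adjusted p = 3.62e-10), and Trdn, which ties it to Ryr1, 2330 to 8833 CPM against 0.642 to 1.52 CPM (log2 fold change -12.12 ± 0.68 SE, adjusted p = 5.95e-10). Hrc, another store protein, followed (0.136 to 0.845 CPM in hypothalamus and 328 to 954 CPM in muscle, log2 fold change -10.78 ± 0.63 SE, adjusted p = 7.89e-10). Junctophilins hold the plasma membrane to the store. Jph1 was higher in muscle (13.7 to 25.0 CPM in hypothalamus and 169.8 to 454 CPM in muscle, log2 fold change -4.05 ± 0.37 SE, adjusted p = 8.35e-08), and the neuronal Jph4 was at 150.3, 187, 195 and 288 CPM in hypothalamus, against 0 to 4.21 CPM (median 0.72) in muscle (log2 fold change 7.69 ± 0.46 SE, adjusted p = 1.06e-09). Jph3, another neuronal form, was listed at 0 in all 10 libraries and was not read as absent. For store-operated entry, Stim1 (-1.78) and Orai1 (-3.41) were higher in muscle and Orai2 (3.46) in hypothalamus, as log2 fold changes with adjusted p = 1.87e-05, 3.62e-07 and 2.77e-05.

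Removal of calcium across the plasma membrane was a hypothalamic feature: all 4 plasma membrane pumps and 5 of 6 sodium-calcium exchangers were higher there, and none in muscle. Atp2b2, a fast pump of neurons, stood at 294, 304, 399.6 and 310.2 CPM in hypothalamus libraries 1 to 4 and 0 to 12.6 CPM in muscle (median 1.42) (log2 fold change 7.48 ± 0.57 SE, adjusted p = 1.2e-08). Every hypothalamus library lay far above the highest muscle library. Slc24a2, a potassium-dependent exchanger, was at 618, 429, 455 and 420.0 CPM in hypothalamus, against 1.64 to 12.6 CPM (median 7.08) in muscle (log2 fold change 6.26 ± 0.41 SE, adjusted p = 2.61e-09), and Slc24a4 had no count in muscle (at least 78.7-fold higher in hypothalamus). Slc8a3 did not pass (58.9 to 100.1 CPM in hypothalamus and 56.2 to 154 CPM in muscle, log2 fold change -0.46 ± 0.28 SE, adjusted p = 0.162), though it did with upper-quartile factors (-0.69, adjusted p = 0.0352). The mitochondrial uniporter differed little: its pore Mcu was higher in muscle (58.3 to 74.3 CPM in hypothalamus and 78.9 to 219.5 CPM in muscle, log2 fold change -1.07 ± 0.28 SE, adjusted p = 0.00278), except under plain total counts (log2 fold change -0.23, adjusted p = 0.475), and Micu3 was higher in hypothalamus (93.1 to 116 CPM in hypothalamus and 36.1 to 52.6 CPM in muscle, log2 fold change 1.27 ± 0.20 SE, adjusted p = 3.26e-05). The small subunits Smdt1 and Micu2 were called higher in muscle here (log2 fold change -0.76 and -0.71) but stood at 0.10 and 0.14 with no call under plain total counts, which left no listed gene higher in muscle, and Micu2 lost its call without any 1 of 7 libraries (hypothalamus 2 to 4, muscle 3 to 6; adjusted p = 0.0517 to 0.152).

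Calcium buffers and sensors in the cytosol were also divided. Pvalb, a buffer of fast fibres and of some interneurons, reached 11598 to 27092 CPM in muscle (median 19142) and 104, 87.0, 112 and 133 CPM in hypothalamus (log2 fold change -7.45 ± 0.45 SE, adjusted p = 1.11e-09). The other EF-hand buffers were neuronal, Calb1 at 79.6 to 100.4 CPM in hypothalamus and 0 to 1.11 CPM in muscle (log2 fold change 8.36 ± 0.47 SE, adjusted p = 5.81e-10) and Calb2 at 153 to 276 CPM in hypothalamus and 0 to 6.31 CPM in muscle (log2 fold change 8.39 ± 0.60 SE, adjusted p = 6.04e-09). The muscle sensor Tnnc2, which moves the thin filament, was at 11381 to 56697 CPM in muscle and at most 0.152 CPM in hypothalamus. Among effectors, Camk2a did not pass (244 to 581 CPM in hypothalamus and 101 to 597 CPM in muscle, log2 fold change 0.66 ± 0.38 SE, adjusted p = 0.138), nor did Camk2g (log2 fold change -0.64 ± 0.28 SE, adjusted p = 0.050003), and Camk2b (log2 fold change 0.53 ± 0.22 SE, adjusted p = 0.0393) and Camk2d (log2 fold change 0.78 ± 0.21 SE, adjusted p = 0.00415) were slightly higher in hypothalamus. Of these, Camk2b lost its call without any 1 of 7 libraries (hypothalamus 2 to 4, muscle 2, 3, 5 or 6; adjusted p = 0.0544 to 0.127), Camk2g was called without muscle library 2, 3, 5 or 6 (adjusted p = 0.0260 to 0.0430), and Camk2a without muscle library 6 (adjusted p = 0.0225). Camk2d lost its call with males only (adjusted p = 0.0534), Camk2b under 5 further settings (adjusted p = 0.0818 to 0.222), and Camk2a was called under plain total counts (1.59, adjusted p = 0.000374). The neuronal sensor Vsnl1, in contrast, stood at 270.2 to 405 CPM in hypothalamus and 0 to 18.9 CPM in muscle (log2 fold change 7.32 ± 0.64 SE, adjusted p = 5.56e-08).

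Glucose enters by transporters and is split by glycolysis, many of whose steps have more than 1 isoenzyme. Of 31 listed genes 30 were tested, 10 were higher in hypothalamus, 18 in muscle, and the median log2 fold change was -2.07. Slc2a4, the insulin-regulated transporter, stood at 166 to 409 CPM in muscle (median 378) and 0.886, 1.06, 1.60 and 0.169 CPM in hypothalamus (log2 fold change -8.50 ± 0.49 SE, adjusted p = 7.58e-10), with muscle library 2 the lowest, while Slc2a3, the neuronal transporter, was at 50.6 to 60.2 CPM in hypothalamus and 6.31 to 13.3 CPM in muscle (log2 fold change 2.38 ± 0.24 SE, adjusted p = 3.12e-07). Hexokinase switched from Hk1 in hypothalamus (129 to 178 CPM in hypothalamus and 10.9 to 21.0 CPM in muscle, log2 fold change 3.26 ± 0.24 SE, adjusted p = 7.47e-09) to Hk2 in muscle (1.60 to 2.70 CPM in hypothalamus and 124 to 639 CPM in muscle, log2 fold change -7.16 ± 0.60 SE, adjusted p = 3.13e-08). Aldoa was at 4910.5 to 15587 CPM in muscle (median 11344) and 596, 770.3, 759.5 and 466 CPM in hypothalamus (log2 fold change -4.09 ± 0.43 SE, adjusted p = 4.34e-07), and Aldoc, which astrocytes use, at 446, 602, 668 and 521 CPM in hypothalamus, against 2.27 to 48.4 CPM (median 4.72) in muscle (log2 fold change 6.04 ± 0.68 SE, adjusted p = 9.04e-07). Enolase changed form, with Eno3 at 4.33 to 10.8 CPM in hypothalamus and 2854 to 7459.6 CPM in muscle (log2 fold change -9.67 ± 0.55 SE, adjusted p = 6.91e-10) and Eno2 at 404 to 679 CPM in hypothalamus and 1.99 to 14.7 CPM in muscle (log2 fold change 6.83 ± 0.50 SE, adjusted p = 6.95e-09). Ldha, the form that favours lactate formation, was at 1263 to 2168 CPM in muscle (median 1684) and 35.5, 47.7, 54.9 and 55.9 CPM in hypothalamus (log2 fold change -5.12 ± 0.33 SE, adjusted p = 1.87e-09). Ldhb did not pass the test and overlapped (136 to 189 CPM in hypothalamus and 56.8 to 445 CPM in muscle, log2 fold change -0.27 ± 0.48 SE, adjusted p = 0.645), so that Ldhb made up 74.4 to 79.3% of lactate dehydrogenase counts in hypothalamus and Ldha 76.7 to 96.9% in muscle. Gapdh and Eno1 share their 3′ ends with pseudogenes or copies (66.7% and 80.0% of the last 400 bases), so that their counts are uncertain.

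Glycogen metabolism was the list farthest on the muscle side: 13 of 18 tested genes were higher in muscle and 3 in hypothalamus (median log2 fold change -3.92). Pygm, the muscle phosphorylase that releases glucose from glycogen (ENSMUSG00000032648.14, chromosome 19, bases 6384399 to 6398459, plus strand), stood at 3094 to 13110 CPM in muscle (median 8623) and 30.4, 34.8, 35.8 and 22.3 CPM in hypothalamus. Its levels did not come near each other in the 2 tissues (log2 fold change -8.15 ± 0.55 SE, adjusted p = 3.14e-09). Pygb, the brain form, had 95.7, 106, 101 and 75.7 CPM in hypothalamus, against 4.63 to 31.6 CPM (median 10.1) in muscle (log2 fold change 3.00 ± 0.37 SE, adjusted p = 2.45e-06). The liver form Pygl did not pass (adjusted p = 0.886). All 5 tested synthesis genes were higher in muscle, among them Gys1, glycogen synthase, at 22.6 to 26.7 CPM in hypothalamus and 219 to 527 CPM in muscle (log2 fold change -4.11 ± 0.32 SE, adjusted p = 1.38e-08). Phosphorylase kinase, which activates Pygm on a calcium signal, was divided: Phka1 (log2 fold change -4.90 ± 0.36 SE, adjusted p = 8.34e-09) was higher in muscle, and Phka2 (log2 fold change 0.77 ± 0.33 SE, adjusted p = 0.0459) and Phkg2 (log2 fold change 2.27 ± 0.40 SE, adjusted p = 0.000116) in hypothalamus. Phka2 lost its call without any 1 of 6 libraries (hypothalamus 1 to 3, muscle 1, 2 or 4; adjusted p = 0.0729 to 0.126) and under 4 further settings (adjusted p = 0.0697 to 0.189). Ppp1r3a, which targets phosphatase to glycogen, was at 39.99 to 128 CPM in muscle and at most 0.749 CPM in hypothalamus (log2 fold change -7.53 ± 0.50 SE, adjusted p = 2.47e-09).

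Creatine kinases and adenine-nucleotide enzymes buffer ATP. The list was mixed: 18 of 33 were higher in muscle, 10 in hypothalamus (median log2 fold change -0.88). Ckm, the muscle kinase, stood at 3427 to 18154 CPM in muscle (median 8580.4) and 0.0341, 0, 0 and 1.18 CPM in hypothalamus (log2 fold change -15.37 ± 1.12 SE, adjusted p = 7.15e-09). Ckb, the brain kinase whose promoter is shown above, stood at 361, 344, 296 and 257 CPM in hypothalamus, against 4.69 to 18.9 CPM (median 6.40) in muscle (log2 fold change 5.31 ± 0.35 SE, adjusted p = 2.72e-09). Their mitochondrial counterparts repeated this, with Ckmt2 at 0.152 to 0.579 CPM in hypothalamus and 427 to 1202 CPM in muscle (log2 fold change -11.03 ± 0.57 SE, adjusted p = 3.9e-10) and Ckmt1 at 70.8 to 129 CPM in hypothalamus and 0 to 10.5 CPM in muscle (log2 fold change 7.04 ± 0.64 SE, adjusted p = 8.67e-08). Ampd1, which deaminates AMP in working fibres, had no count in hypothalamus and 722 to 1781 CPM in muscle, at least 21315-fold higher, and Prkag3, the AMPK subunit of glycolytic fibres, none against 39.99 to 496 CPM (at least 2529.7-fold higher). The ADP/ATP carrier Slc25a4 was at 4355 to 7465 CPM in muscle (median 5979) and 452, 429, 436 and 556 CPM in hypothalamus (log2 fold change -3.67 ± 0.31 SE, adjusted p = 3.93e-08). Myoglobin, Mb, which stores oxygen, was at 0.136 to 3.04 CPM in hypothalamus and 505 to 4049.8 CPM in muscle (log2 fold change -11.07 ± 1.08 SE, adjusted p = 1.88e-07). Neuroglobin, Ngb, was at 11.96 to 28.1 CPM in hypothalamus and 0 to 1.11 CPM in muscle (87.1-fold by counts over depth, 95% counting interval 29.7 to 423, adjusted p = 2.05e-07), and Cygb was the most abundant globin of this list in hypothalamus (83.0 to 91.1% of its counts).

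Mitochondrial energy genes were higher in muscle almost as a block. Of 80 tested nuclear respiratory-chain genes 73 were higher in muscle (median log2 fold change -1.95), namely 35 of 36 of complex I, all 4 of complex II, all 10 of complex III and 14 of 16 of complex V. One of them was the catalytic subunit Atp5b of complex V, at 231 to 383 CPM in hypothalamus and 1107 to 1929.7 CPM in muscle (log2 fold change -2.13 ± 0.28 SE, adjusted p = 5.48e-06). The TCA list was alike (28 of 33 higher in muscle, median -1.94), with Idh2 of the cycle among the largest (22.3 to 30.8 CPM in hypothalamus and 139 to 1096 CPM in muscle, log2 fold change -4.35 ± 0.58 SE, adjusted p = 6.49e-06). Among the exceptions were tissue isoforms of complex IV. Cox6a1 stood at 354, 503, 567 and 526 CPM in hypothalamus libraries 1 to 4 and 56.2 to 229 CPM in muscle (median 97.2), and Cox8a at 190.3, 294, 329.9 and 239 CPM in hypothalamus, against 34.3 to 107 CPM (median 67.5) in muscle. Neither overlapped, and both were higher in hypothalamus (log2 fold change 2.12 ± 0.34 SE, adjusted p = 4.33e-05 and log2 fold change 1.93 ± 0.31 SE, adjusted p = 4.74e-05). Their muscle forms Cox6a2 (26.2 to 52.2 CPM in hypothalamus and 1543 to 5975 CPM in muscle, log2 fold change -6.85 ± 0.54 SE, adjusted p = 1.57e-08) and Cox8b (0.169 to 1.37 CPM in hypothalamus and 410.4 to 941 CPM in muscle, log2 fold change -10.00 ± 0.53 SE, adjusted p = 4.27e-10) were higher in muscle. Cox7a1 was likewise a muscle form (3.10 to 5.07 CPM in hypothalamus and 479.9 to 977 CPM in muscle, log2 fold change -7.46 ± 0.38 SE, adjusted p = 3.9e-10), but its partner Cox7a2 was higher in muscle too (233 to 327 CPM in hypothalamus and 379 to 1025 CPM in muscle, log2 fold change -1.24 ± 0.30 SE, adjusted p = 0.00181), though not under plain total counts (-0.36, adjusted p = 0.228). Atpif1, the inhibitor of ATP synthase run in reverse, was at 199, 279, 269 and 259 CPM in hypothalamus, against 49.8 to 78.9 CPM (median 60.9) in muscle (log2 fold change 2.00 ± 0.22 SE, adjusted p = 9.26e-07).

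In the TCA list Ogdhl, a second form of oxoglutarate dehydrogenase with the RE1 consensus shown above, had 49.7, 63.6, 76.2 and 51.2 CPM in hypothalamus, against 0 to 6.12 CPM (median 2.30) in muscle (log2 fold change 4.64 ± 0.44 SE, adjusted p = 1.27e-07), against Ogdh at 101 to 115 CPM in hypothalamus and 303 to 537 CPM in muscle (log2 fold change -2.02 ± 0.24 SE, adjusted p = 2.09e-06). Pyruvate dehydrogenase kinases, which close the entry of pyruvate into the cycle, split as well: Pdk4 (1.67 to 3.89 CPM in hypothalamus and 26.2 to 143 CPM in muscle, log2 fold change -4.70 ± 0.52 SE, adjusted p = 8.69e-07) and Pdk2 (33.3 to 60.1 CPM in hypothalamus and 128 to 700.2 CPM in muscle, log2 fold change -2.93 ± 0.41 SE, adjusted p = 9.66e-06) were higher in muscle and Pdk3 (10.1 to 19.4 CPM in hypothalamus and 0 to 2.78 CPM in muscle, log2 fold change 3.67 ± 0.39 SE, adjusted p = 5.24e-07) in hypothalamus. Of 7 tested protein-coding transcripts of mitochondrial DNA 6 were higher in muscle, by log2 fold changes from -2.22 for mt-Cytb to -1.53 for mt-Co1, whose 3′ end recurs in full in another annotated gene. mt-Nd4 was the most abundant of them, at 102900 to 225700 CPM in muscle (median 155350) and 29589, 47204, 46760 and 43874 CPM in hypothalamus (log2 fold change -1.92 ± 0.38 SE, adjusted p = 0.000356). mt-Nd6, the one protein gene on the other mitochondrial strand, went the opposite way, at 43.0, 86.1, 79.9 and 80.9 CPM in hypothalamus, against 3.34 to 18.5 CPM (median 7.73) in muscle (log2 fold change 3.17 ± 0.40 SE, adjusted p = 3.03e-06); hypothalamus library 1 was the lowest of its group, and the strand setting of the counting is not given in the sources used here. The mitochondrial ribosomal RNAs, outside this list, were also called higher in hypothalamus, with overlap. The log2 fold change was 1.65 ± 0.46 SE for mt-Rnr1 (adjusted p = 0.00455) and 1.38 ± 0.48 SE for mt-Rnr2 (adjusted p = 0.0190). The mt-Rnr2 call was lost with sex as a covariate (adjusted p = 0.118) and with males only (adjusted p = 0.144). Cox4i1, Ndufa13, mt-Co2 and mt-Atp8 were listed at 0 in all 10 libraries and were not read as absent.

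**Figure D3:**
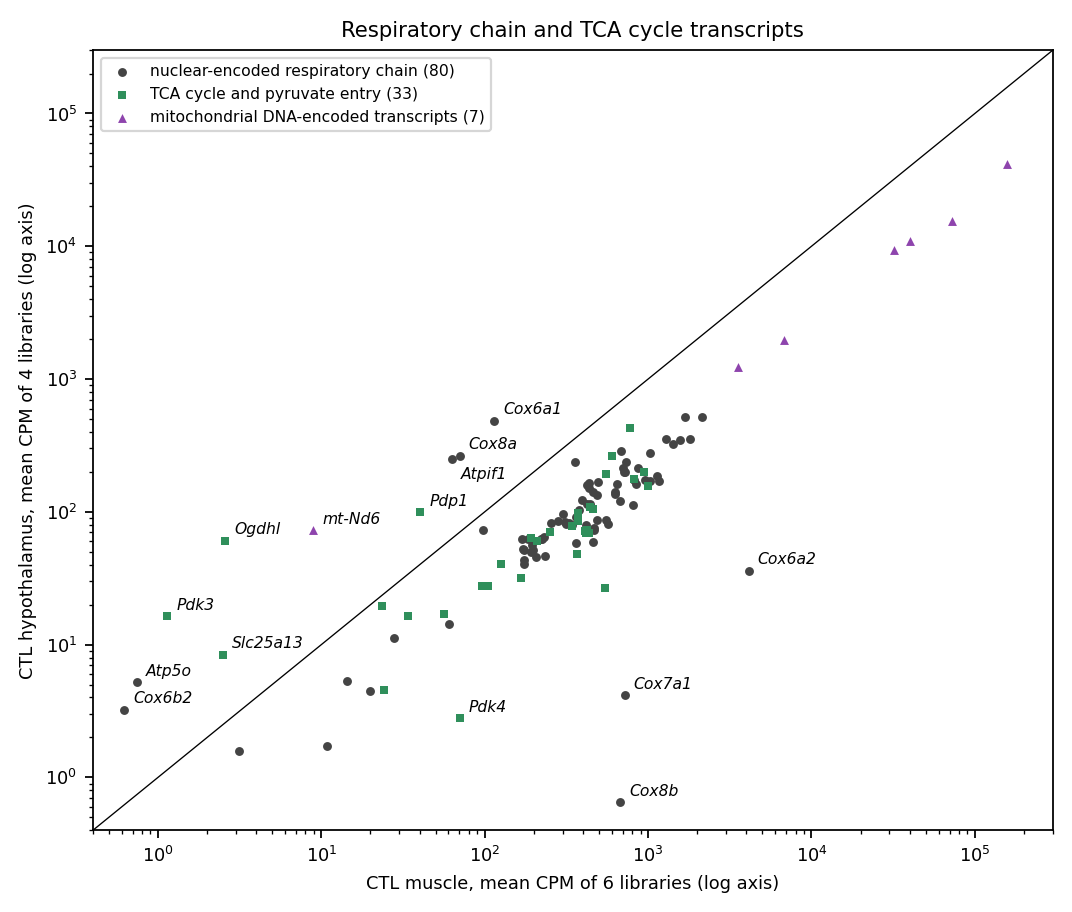
Mean CPM in the 6 muscle libraries (x axis) and the 4 hypothalamus libraries (y axis), both on log axes, of the tested genes of the nuclear respiratory chain (80), the TCA cycle and pyruvate entry (33) and mitochondrial DNA (7, protein-coding only). Most points lie below the diagonal of equal CPM (medians of -1.95, -1.94 and -1.79 on the log2 scale, hypothalamus minus muscle), and the labelled exceptions include Cox6a1, Cox8a and Ogdhl above it.

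Fatty acids feed the same mitochondria. Of 35 listed genes 33 were tested, 5 were higher in hypothalamus, 22 in muscle, and the median log2 fold change was -2.48 (9 higher in hypothalamus under plain total counts). All 13 tested beta-oxidation genes were higher in muscle. Acadm, which opens the oxidation of medium chains, stood at 13.7, 10.02, 11.7 and 18.1 CPM in hypothalamus libraries 1 to 4 and 108 to 264 CPM in muscle (median 189), and the groups lay far apart (log2 fold change -3.82 ± 0.31 SE, adjusted p = 2.18e-08). Uptake was led by Lpl, which frees fatty acids from lipoproteins (8.50 to 11.7 CPM in hypothalamus and 624 to 2140 CPM in muscle, log2 fold change -7.05 ± 0.46 SE, adjusted p = 2.27e-09), and Cd36, a transporter (0.304 to 1.43 CPM in hypothalamus and 77.3 to 227 CPM in muscle, log2 fold change -7.09 ± 0.47 SE, adjusted p = 2.91e-09). Adipocyte markers were at 64.8 to 3256 CPM in muscle and at most 1.06 CPM in hypothalamus, and adipocytes transcribe both genes; their part was not tested. On the hypothalamic side were acyl-CoA synthetases, Acsl3 at 137 to 247 CPM in hypothalamus and 7.79 to 27.4 CPM in muscle (log2 fold change 3.34 ± 0.33 SE, adjusted p = 2.03e-07) and Acsl6 at 44.8 to 94.6 CPM in hypothalamus and 10.5 to 31.9 CPM in muscle (log2 fold change 1.53 ± 0.29 SE, adjusted p = 0.000247), and the brain carnitine transferase Cpt1c (18.8 to 32.3 CPM in hypothalamus and 0.142 to 6.67 CPM in muscle, log2 fold change 3.34 ± 0.52 SE, adjusted p = 3.44e-05). Cpt1b, the muscle form, was listed at 0 throughout; 72.6% of its 3′ end overlaps another annotated gene, and it was not read as absent. The coactivator Ppargc1a did not pass the test here, though it was called higher in hypothalamus under plain total counts (log2 fold change 0.87, adjusted p = 0.0296) (37.2 to 62.8 CPM in hypothalamus and 12.6 to 94.0 CPM in muscle, log2 fold change -0.03 ± 0.38 SE, adjusted p = 0.946).

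The sarcomere is built of actin thin filaments, myosin thick filaments and the proteins that anchor them. Acta1, skeletal actin (ENSMUSG00000031972.5, chromosome 8, bases 123891769 to 123894751, minus strand), stood at 22660 to 54683 CPM in muscle (median 50560) and 3.10, 5.47, 5.94 and 7.77 CPM in hypothalamus (log2 fold change -13.05 ± 0.64 SE, adjusted p = 3.69e-10). Even the lowest muscle value, that of library 2, lay far above the highest hypothalamus value. It made up 95.2 to 98.4% of actin counts in muscle, and Actb 93.7 to 97.8% in hypothalamus; Actg1 could not be read, since 43.4% of its 3′ end recurs in other genes. Actb differed little and overlapped (430.4 to 1098 CPM in hypothalamus and 183 to 667 CPM in muscle, log2 fold change 1.03 ± 0.39 SE, adjusted p = 0.0281). The Actb call was lost without hypothalamus library 1 or 2 or muscle library 1, 2 or 4 (adjusted p = 0.0533 to 0.0873) and under 3 further settings (adjusted p = 0.0712 to 0.163). Myh4, the heavy chain of the fastest fibres, was at 18950 to 65261 CPM in muscle and at most 0.152 CPM in hypothalamus (1828800-fold by counts over depth, 95% counting interval 328230 to 72234000, adjusted p = 3.62e-10). Non-muscle myosin Myh10 was higher in hypothalamus (74.5 to 161 CPM in hypothalamus and 11.2 to 43.2 CPM in muscle, log2 fold change 2.25 ± 0.35 SE, adjusted p = 3.31e-05), as was Myo5a, a vesicle motor (167 to 289.6 CPM in hypothalamus and 7.79 to 13.3 CPM in muscle, log2 fold change 4.33 ± 0.26 SE, adjusted p = 1.06e-09). All 12 giant and Z-disc proteins were higher in muscle, with Ttn, the spring of the sarcomere, at 1.86 to 5.18 CPM in hypothalamus and 4755 to 20586 CPM in muscle (log2 fold change -12.01 ± 0.75 SE, adjusted p = 1.55e-09), and Myoz1 at 0 in hypothalamus and 1332 to 3359 CPM in muscle (at least 49970-fold higher). Neb, the ruler of the thin filament, was at 0.92 to 1.69 CPM in hypothalamus and 2736 to 10216 CPM in muscle (log2 fold change -12.34 ± 0.64 SE, adjusted p = 4.04e-10), and its small relative Nebl the reverse (92.4 to 147 CPM in hypothalamus and 0.661 to 4.93 CPM in muscle, log2 fold change 5.48 ± 0.33 SE, adjusted p = 1.08e-09).

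Fast and slow fibre genes varied differently among the 6 muscle libraries. Fast Myh4 stood at 41667, 18950, 46654, 29927, 35332 and 65261 CPM in muscle libraries 1 to 6. Slow Myh7 had 172, 23.2, 159, 1079, 1844 and 54.8 CPM in the same order, and the slow-fibre sensor Tnnc1 44.4, 16.8, 60.8, 235, 879 and 35.0. Libraries 4 and 5 were highest for both, and likewise for the light chain Myl3 (433, 130.5, 598, 3727, 10642 and 542 CPM), the pump Atp2a2 (251, 116, 158, 1544, 1711 and 91.2 CPM), the buffer Casq2 (30.1, 10.5, 58.1, 141, 175 and 7.27 CPM) and Ldhb (70.3, 56.8, 138, 362, 445 and 108 CPM). Both came from males, as did library 6, which was low. The calf pooled gastrocnemius with soleus, a slow muscle; the share of each in a library is not given, and its part in these values was not tested.

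**Figure D4:**
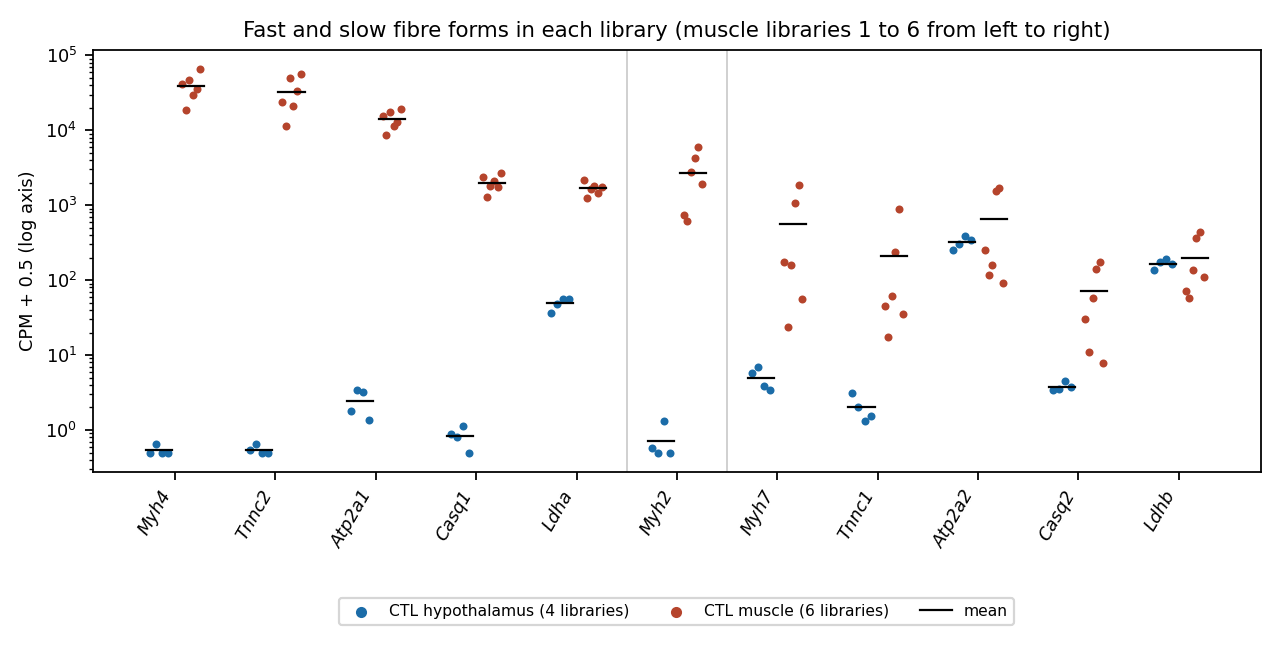
CPM plus 0.5 (log axis) of fast (Myh4, Tnnc2, Atp2a1, Casq1, Ldha), intermediate (Myh2) and slow or shared (Myh7, Tnnc1, Atp2a2, Casq2, Ldhb) isoforms in each library, muscle libraries 1 to 6 from left to right. Each fast isoform spans a narrower range over the muscle libraries than each slow or shared one, and the latter are highest in libraries 4 and 5 (Tnnc1 from 16.8 to 879 CPM).

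The membrane skeleton was divided by isoform. Sptan1 (196 to 226 CPM in hypothalamus and 27.8 to 58.1 CPM in muscle, log2 fold change 2.25 ± 0.23 SE, adjusted p = 3.63e-07) and Sptbn1 (441 to 761 CPM in hypothalamus and 132 to 229 CPM in muscle, log2 fold change 1.64 ± 0.24 SE, adjusted p = 2.06e-05), the general alpha and beta spectrins, and the axonal Sptbn4 (234-fold by counts over depth, 95% counting interval 79.8 to 1133, adjusted p = 1.8e-08) were higher in hypothalamus, and Sptb, the beta form of erythrocytes and muscle, in muscle (35.5 to 52.5 CPM in hypothalamus and 120.0 to 209 CPM in muscle, log2 fold change -1.91 ± 0.24 SE, adjusted p = 2.87e-06). Ank1 was higher in muscle (49.1 to 57.4 CPM in hypothalamus and 634 to 1323 CPM in muscle, log2 fold change -4.03 ± 0.32 SE, adjusted p = 2e-08) and Ank2 in hypothalamus (289 to 649.9 CPM in hypothalamus and 35.8 to 147 CPM in muscle, log2 fold change 2.20 ± 0.38 SE, adjusted p = 7.94e-05). Both Sptb and Ank1 are also made by red cells, whose markers were at 1362 to 13697 CPM in muscle and 425 to 1197 CPM in hypothalamus; their part was not tested. Dmd, dystrophin, was present in both tissues, at 419 to 1133 CPM in muscle (median 869) and 339, 205, 151 and 166 CPM in hypothalamus (log2 fold change -1.93 ± 0.37 SE, adjusted p = 0.000225), and its relative Utrn did not pass the test (44.3 to 107 CPM in hypothalamus and 40.7 to 84.0 CPM in muscle, log2 fold change 0.17 ± 0.27 SE, adjusted p = 0.606).

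Microtubule genes were a hypothalamic group, with 27 of 36 tested genes higher there and 6 in muscle, or 3 under plain total counts (median log2 fold change 3.72). The dendritic protein Map2 stood at 662, 577, 560.0 and 578 CPM in hypothalamus libraries 1 to 4 and 1.64 to 29.5 CPM in muscle (median 9.86), with no overlap (log2 fold change 5.88 ± 0.46 SE, adjusted p = 1.62e-08). The axonal kinesin Kif5a was at 1173, 976, 978 and 1298 CPM in hypothalamus, against 1.10 to 42.1 CPM (median 6.67) in muscle (log2 fold change 7.05 ± 0.66 SE, adjusted p = 1.21e-07), and the general form Kif5b differed little (249.5 to 482 CPM in hypothalamus and 71.6 to 265 CPM in muscle, log2 fold change 0.80 ± 0.32 SE, adjusted p = 0.0372). Kif5b lost its call without hypothalamus library 1 or 2 or muscle library 1, 2 or 4 (adjusted p = 0.0590 to 0.144) and under 4 further settings (adjusted p = 0.0583 to 0.249). Among tubulins Tubb4a (99.9 to 133 CPM in hypothalamus and 0 to 2.22 CPM in muscle, log2 fold change 7.33 ± 0.49 SE, adjusted p = 3.28e-09) and Tubb2a (204 to 404 CPM in hypothalamus and 8.59 to 42.1 CPM in muscle, log2 fold change 4.05 ± 0.34 SE, adjusted p = 3.42e-08) were higher in hypothalamus. Tuba4a (260.0 to 395 CPM in hypothalamus and 1159.8 to 2755 CPM in muscle, log2 fold change -2.76 ± 0.33 SE, adjusted p = 1.76e-06), Tuba8 (1.499 to 4.25 CPM in hypothalamus and 98.9 to 333 CPM in muscle, log2 fold change -6.53 ± 0.45 SE, adjusted p = 3.64e-09) and Tubb6 (0.273 to 1.69 CPM in hypothalamus and 11.9 to 86.8 CPM in muscle, log2 fold change -5.47 ± 0.66 SE, adjusted p = 2.22e-06) were higher in muscle, where Tuba4a made up 83.9 to 88.1% of the alpha-tubulin counts. Opposite-strand annotation covers 39.2% of the Tuba4a 3′ end, and more of that of other named genes, given under the processing. Tuba1a and Tubb3, main neuronal tubulins, were listed at 0 in all libraries and were not read as absent. Other genes share 43.87% of the Tuba1a 3′ end and 59.26% of that of Tuba1c. The share of Tuba4a is therefore one of the counts that could be read, not of all alpha tubulin. Intermediate filaments gave 5 genes to each side: neurofilament Nefl (223 to 309 CPM in hypothalamus and 0 to 4.45 CPM in muscle, log2 fold change 7.51 ± 0.47 SE, adjusted p = 1.57e-09) and Ina (log2 fold change 8.46 ± 0.55 SE, adjusted p = 2.11e-09) to hypothalamus, and desmin, Des (0.338 to 1.06 CPM in hypothalamus and 627 to 3776 CPM in muscle, log2 fold change -11.34 ± 0.77 SE, adjusted p = 3.51e-09), with the glial and mesenchymal Vim (25.2 to 34.3 CPM in hypothalamus and 114 to 219 CPM in muscle, log2 fold change -2.40 ± 0.25 SE, adjusted p = 4.67e-07) and with Nes (2.87 to 5.35 CPM in hypothalamus and 4.21 to 39.5 CPM in muscle, log2 fold change -2.42 ± 0.42 SE, adjusted p = 8.54e-05), to muscle. The list of intermediate filaments and lamins held 12 tested genes. Over all genes tested, 40.1% were higher in hypothalamus and 27.7% in muscle, so that its hypothalamus count lies near the share of all genes. Fibroblast markers were at 1063 to 1515 CPM in muscle and 43.6 to 61.3 CPM in hypothalamus, and their part in Vim was not tested.

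The ratio of 2 paralogs within 1 library does not depend on the scaling between libraries where both forms have many counts. Where a form is near 0, its size is limited by the 0.5 CPM added and is not a measured difference. Of 60 pairs of a form taken as that of muscle and its counterpart, 54 in 50 families could be read. In the other 6 a form had a mean under 10 counts in both tissues or over 40% of its 3′ end shared with or overlapped by another gene. Not every first form is particular to muscle: Kif5b and Camk2d were themselves called higher in hypothalamus. A change of ratio can come from either form. The log2 ratio (0.5 CPM added to each form) was higher in every muscle library than in every hypothalamus library for 51 pairs, each at p = 0.00952 by a two-sided exact permutation test, the smallest that 4 against 6 libraries allow. Of all genes tested, 20.2% had every muscle library above every hypothalamus library and 32.6% the reverse. The median difference between the tissues was 9.88. Because the pairs were picked for being muscle and other forms, their direction is a description. For 38 pairs the dominant form changed, the ratio being above 0 in all muscle and below 0 in all hypothalamus libraries. With the 0.5 CPM added, Ckm to Ckb differed most, at -8.83 ± 1.05 in the 4 hypothalamus and 9.93 ± 1.42 in the 6 muscle libraries (mean ± SD). Myh4 to Myh10 stood at -7.51 ± 0.56 in the 4 hypothalamus and 10.90 ± 1.16 in the 6 muscle libraries. Ckm and Myh4 were near 0 in hypothalamus, so that the sizes of these ratios there are limited by the added 0.5 CPM. Ryr1 to Ryr2 was at -4.12 ± 0.20 in the 4 hypothalamus and 10.16 ± 1.93 in the 6 muscle libraries, and Cox6a2 to Cox6a1 at -3.77 ± 0.38 in the 4 hypothalamus and 5.16 ± 1.34 in the 6 muscle libraries. Other pairs shifted without crossing 0 in every library: Dmd stayed above Utrn in both tissues, at 1.67 ± 0.14 in the 4 hypothalamus and 3.68 ± 0.53 in the 6 muscle libraries, and Cox7a1 only drew level with Cox7a2 in muscle, at -5.96 ± 0.21 in the 4 hypothalamus and 0.12 ± 0.20 in the 6 muscle libraries. In 3 pairs the groups overlapped: Camk2g to Camk2a, Camk2d to Camk2b, and Pfn1 to Pfn2, where Pfn1 had few counts. The 54 p-values were not adjusted.

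The 6 CTL liver libraries of the same series served as a further tissue for these ratios. Among 50 readable pairs with at least 10 counts of a form summed over the 6 liver libraries, liver stood nearer to hypothalamus in 38 and nearer to muscle in 12. It stood below every muscle library in 43. This limit is lower than the mean of 10 counts per library asked of hypothalamus or muscle. Some liver ratios thus rest on few counts and are drawn towards 0 by the 0.5 CPM added. Tmod4 and Tmod2, for example, had 11 and 4 counts over all liver libraries. For such pairs, nearness to a tissue does not show which form liver uses. On the muscle side liver had Ldha over Ldhb (log2 ratio 7.43, against 3.50 in muscle and -1.77 in hypothalamus), Ogdh over Ogdhl (6.98, 7.60 and 0.87), Eno3 over Eno2, Map4 over Map2 and Kif5b over Kif5a. For Cox6a2 to Cox6a1 liver stood at -9.23, below both tissues.

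**Figure D5:**
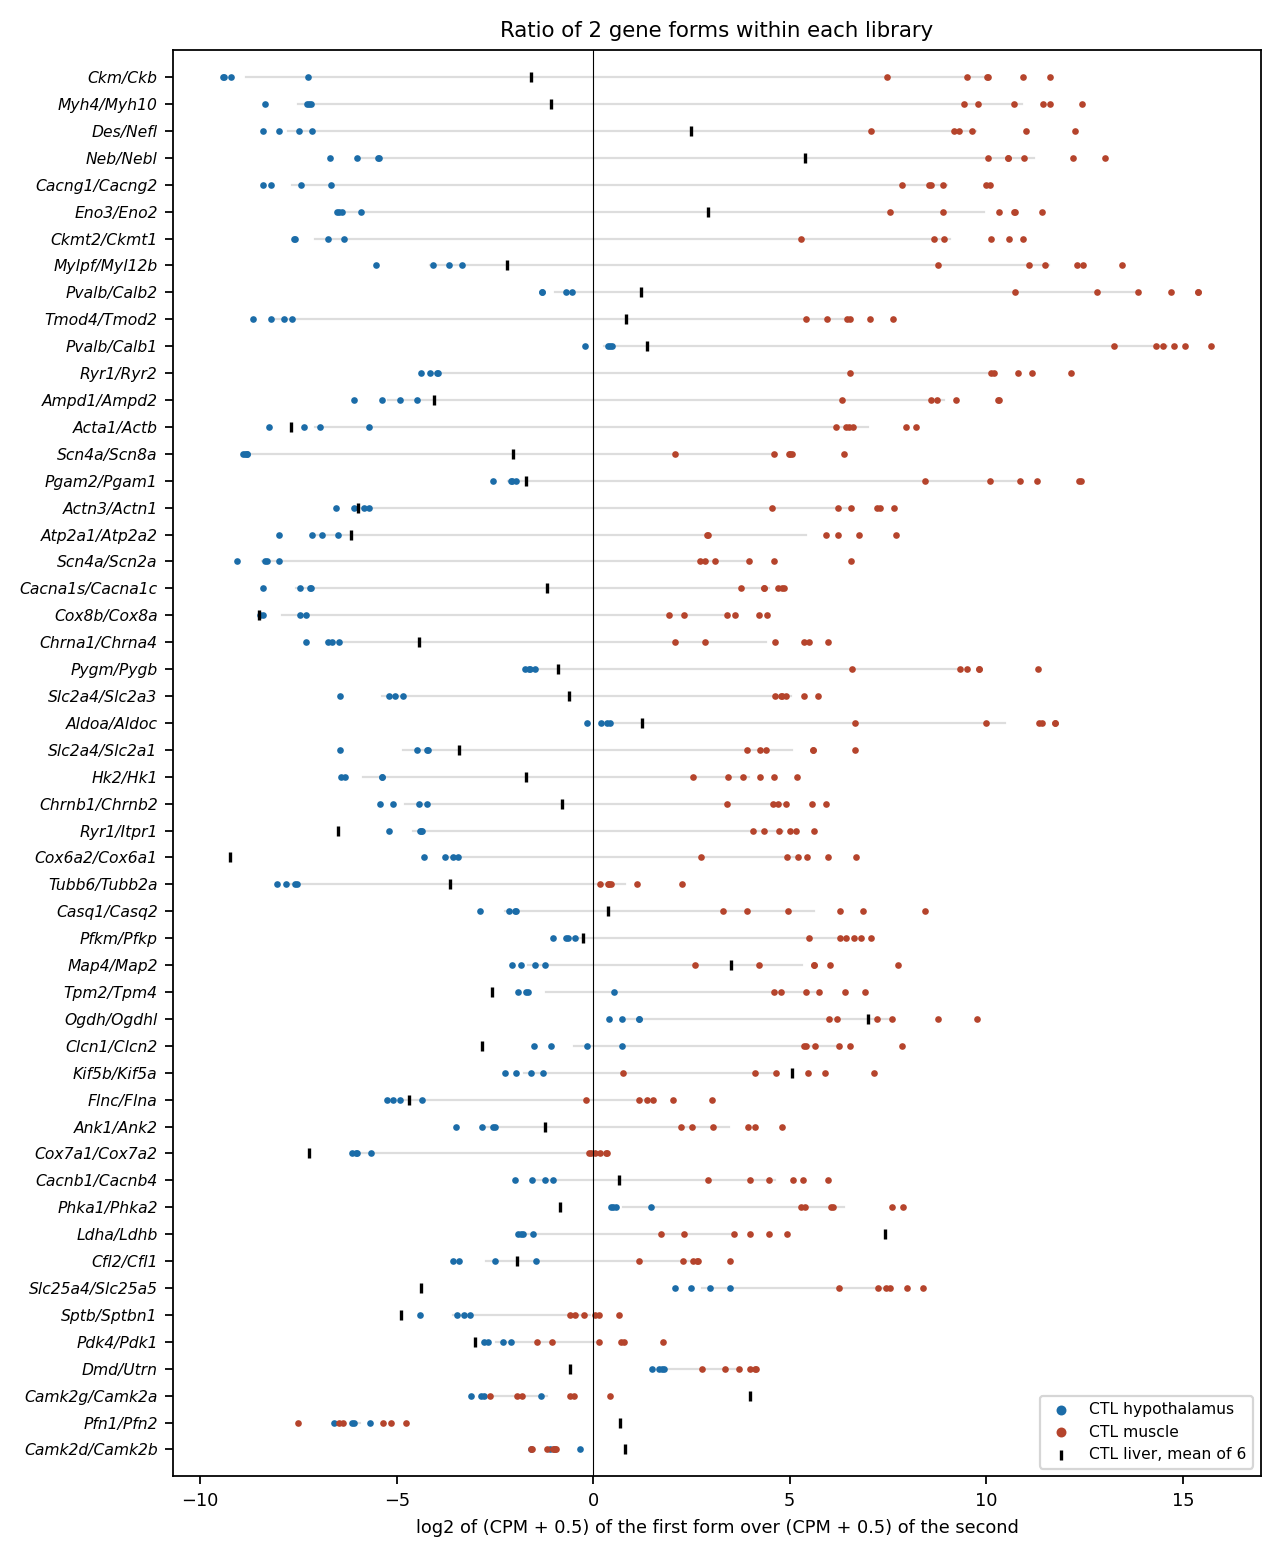
Log2 ratio of the first form, taken as that of muscle, to its paralog, for 52 of the 54 readable pairs. Each row is a pair and each dot a library. A tick marks the mean of the 6 liver libraries for the 48 pairs with at least 10 counts of a form summed over them. Muscle dots lie to the right of all hypothalamus dots in 49 rows, and on opposite sides of 0 in 37.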

How the data were processed

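The authors deposited raw counts per gene for each library. Total RNA from snap-frozen tissue was made into QuantSeq 3′ libraries and sequenced single-end; reads were trimmed with BBDuk, aligned with STAR (2.5.0a) to GRCm38.p6 and counted with HTSeq (0.6.1), whose strand setting is not given in the sources used here. A read goes to 1 gene only, so 3′ ends shared with or overlapped by another gene can lose their counts.

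Here 55401 identifiers were read, 13401 were kept by edgeR's filterByExpr, and the 4 hypothalamus and 6 muscle CTL libraries were compared with edgeR's quasi-likelihood test (4.0.16, TMM factors, Benjamini-Hochberg adjustment over all genes tested; R 4.3.3). CPM are counts per 1000000 of the TMM-scaled library. DESeq2 (1.42.0) was an alternative. The test was tested on simulated data first. Ratios of paralogs (0.5 CPM added) were compared by exact permutation (scipy 1.17.1). The study's methods describe no test between tissues. Counting intervals are exact binomial at 95%.

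The members and lists were chosen with earlier results of these data known. Named were, per list, the 4 highest and 4 lowest called log2 fold changes with at least 10 counts per library in the higher tissue, members of the paralog pairs, called members against their role's direction and defining members that did not pass. Beyond this rule 30 further genes were named for their role after their values were seen. The 3′ ends were compared over the last 400 bases in words of 50 bases, and the paralog pairs in which a form averaged under 10 counts per library in both tissues, or had over 40% of its end shared with or overlapped by another gene on its strand, were left out, a choice made after seeing the data. Overlap on the opposite strand was not part of that choice. It covers the ends of Cacna1s and Phkg2 (100%), Tnnc2 (92.75%), Ryr3 (85.17%), Atp2a1 (60.59%), Des (55%) and Chrnb2 (53.75%), among others. Its part in their counts was not tested, the strand setting not being given. Total counts of 434494 to 22321322 per library set the precision. A few genes of the lists are counted but not reported here by name.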

Additional observations from a re-analysis of the deposited data

Results flagged for a closer look

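Of 337 groups of values examined (named genes, summed lists and totals in the 4 hypothalamus or the 6 muscle libraries), 35 (10.4%) held a library that stood far from its group by Dixon's ratio, where chance gives about 1 in 20. Hypothalamus library 1 accounted for 17. It was the deepest library (22321322 counts against 4070847 to 4599946) and was high for Scn1a (208 CPM against 81.4 to 98.4 in the others), Ano4 (108 against 41.2 to 47.4), Gabrb1 (551 against 241 to 289), Ryr3 (199 against 95.6 to 105), Gria2 (243 against 146 to 158), Kcnq3 (405 against 240.2 to 246), Nalcn (143 against 71.6 to 82.8) and the protocadherin Pcdh9 (1649 against 815 to 922). The summed chloride channels (593 CPM against 457 to 474), HCN, NALCN and TRP channels (1466 against 834 to 936) and transmitter-gated channels (5432 against 3641 to 3903) were high in it too. The same library was high for the mitochondrial ribosomal RNAs mt-Rnr2 (29604 CPM against 8955 to 11385) and mt-Rnr1 (15566 against 4911 to 5962), for CT010467.1 (16614 against 1980 to 4077) and for pituitary markers (10.4 against 0 to 0.481), and low for mt-Nd6 (43.0 against 79.9 to 86.1). Which property of this library goes with these values was not tested.

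Muscle library 2, the shallowest, accounted for 10. It was high for Scn7a (40.0 CPM against 5.95 to 11.7), for the liver phosphorylase Pygl (35.8 against 1.32 to 5.45) and for the markers of neurons (84.2 against 19.2 to 42.3), adipocytes (3256 against 64.8 to 746) and pituitary (10.5 against 0 to 1.32). It was low for Slc2a4 (166 CPM against 326 to 409), Acta1 (22660 against 48272 to 54683), Myoz1 (1332 against 2751 to 3359), the thin-filament cap Tmod4 (379 against 661 to 775) and the summed inward rectifier, tandem-pore and calcium-activated potassium channels (440.0 against 705 to 821).

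Of the rest, muscle library 5 was high for Fxyd1 (673 CPM against 210.5 to 364), Tnnc1 (879 against 16.8 to 235) and Myl3 (10642 against 130.5 to 3727), and muscle library 4 for the calcineurin regulator Rcan1 (296 against 33.7 to 112). Muscle library 6 was high for mt-Nd2 (61810 CPM against 19280 to 31185) and muscle library 3 for erythrocyte markers (13697 against 1362 to 2362). Hypothalamus library 3 was high for Atp2b2 (400 CPM against 294 to 310.2), and hypothalamus library 4 was low for choroid plexus markers (868 against 1829 to 2025).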

How the results depend on the processing

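The counts over all genes, those of paralog pairs and 1 direction of each list (for most lists the one with more calls) kept within 1.5 times their value in 554 of 566 combinations of result and alternative. In the other direction of the lists 429 of 460 combinations did. There the muscle count of chloride channels went from 4 to 2 under 9 settings, 5 of them the loss of 1 library, that of the sodium-potassium ATPase from 3 to 1 without muscle library 5, and that of transmitter-gated channels from 6 to 1 under the stricter filter. Plain total counts took the muscle count from 3 to 0 in calcium extrusion and uptake, from 1 to 0 in HCN, NALCN and TRP channels, from 3 to 1 in voltage-gated potassium channels, from 5 to 3 in calcium channels and from 6 to 3 in microtubule genes, and the hypothalamus count of fatty acid use from 5 to 9. Small muscle counts rose in voltage-gated potassium channels to 5 (DESeq2 or no filter), in calcium extrusion to 5 (upper quartile) and in HCN, NALCN and TRP channels to 2 (no filter, or without hypothalamus library 1). Thinning lowered 10 of these other-direction counts, that of chloride channels among them. Thinning every library to the shallowest one left 2479 genes higher in hypothalamus and 2147 in muscle, 1529 and 929 of them at least 4-fold, and 22 voltage-gated potassium channels, 15 inward rectifier, tandem-pore or calcium-activated potassium channels and 7 HCN, NALCN or TRP channels higher in hypothalamus; fewer counts, and fewer genes tested, go with this by construction. Plain total counts left 1962 genes higher in muscle, 910 of them at least 4-fold, and 5 sodium-potassium ATPase genes higher in hypothalamus. Without the expression filter 5055 genes were at least 4-fold higher in hypothalamus and 2273 in muscle. Under plain total counts 5 named genes changed sign: Ano6 stood at a log2 fold change of 0.0408, Smdt1 at 0.10, Micu2 at 0.14, Cacnb1 at 0.0575 and Ppargc1a at 0.87. The scaling moved the median over all genes from 0.32 to -0.10 (DESeq2), 0.09 (upper quartile) and 1.18 (total counts). Leaving out 1 library at a time gave 5080 to 5384 genes higher in hypothalamus and 3397 to 4005 in muscle. A replicate block on the shared numbers 1 to 4 gave 4992 and 3278. By their labels, numbers 1 to 3 join male hypothalamus to female muscle libraries, so that these numbers do not pair the samples. Number 4 is male in both tissues, and the labels do not say whether it was the same mouse. The deviations of same-numbered libraries correlated at -0.20, -0.12, -0.0019 and 0.25, which cannot tell whether a mouse was shared. With males only, 5003 and 3773 genes were called. Muscle library 2 limits what can be seen of low genes in muscle, since 1 count there is worth 2.1 CPM.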
